A study of Mus musculus with 6 samples.

Results

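The genes described here are 49 genes of DNA replication and of the passage from G1 into S phase, chosen by name from a list of licensing, fork, nucleotide and E2F genes. All 49 had a row among the 22162 genes of the deposited table. They were followed in mouse skin fibroblasts (MSFs) that came from a female FASST mouse. FASST mice carry a tamoxifen (TAM)-inducible Cre recombinase under the pro-alpha 2(I) collagen promoter, active in cells of mesenchymal origin, and an allele at the ROSA26 locus from which Cre releases p27Kip1, an inhibitor of cyclin-dependent kinases, together with GFP. The cells of both groups carried both alleles and were grown in 3% oxygen. The senescent group (n = 3) received 10 µM TAM for 48 h and the non-senescent group (n = 3) received ethanol (EtOH), so that TAM itself differed between the groups together with the allele. The paper does not state how long after this treatment the RNA for sequencing was collected. Each group has replicates 1, 2 and 3, and no source states that they were separate animals, so that p-values measure the spread between these libraries, which may be technical.

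Before S phase, the origin recognition complex, Cdc6 and Cdt1 load the Mcm2 to Mcm7 helicase onto origins, and geminin (Gmnn) blocks Cdt1 once S phase has begun. Cyclin E-dependent kinase then helps Cdc45 and the GINS complex to join the helicase, and polymerases alpha, delta and epsilon copy the opened strands with the sliding clamp Pcna. Many of these genes are transcribed in late G1 by E2F factors, which the retinoblastoma family holds back in resting cells. A permanent exit from this cycle defines senescence, and p27Kip1 acts on the cyclin E kinase.

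E2F factors bind promoters at short GC-rich sites, so promoter windows of the members were searched for letters of this kind. RefSeq windows of GRCm38.p6, from 250 bases before to 50 bases after each transcript start, were at hand for 40 of the 49 genes. Gins1, Gins2, Gins4, Rfc2, Mcm4, Pole, Prim2, Gmnn and Ccne2 had no window. The letters TTTCGCGC, TTTGGCGC, TTTCCCGC or TTTGCCGC, on either strand, occurred in 17 of the 40 genes (42.5%), against 704 of 27025 genes (2.6%) in all windows. They were found in 4 of 5 helicase core genes and in 0 of 4 nucleotide synthesis genes. For comparison, the CHR letters TTTGAA or TTCGAA, known from promoters of mitotic genes, occurred in 10 of the 40 genes (25%) and in 21.7% of all genes. CCAAT occurred in 25 of the 40 (62.5%) and in 41.1% of all genes. In 20 genes of mitosis and G2/M with a window, the E2F letters occurred in 1 (5%), the CHR letters in 15 (75%) and CCAAT in 17 (85%). A match is a description of the letters only. The 250 bases before the start are shown for 4 members with their highest value in replicate 2 of both groups, 3 with matches and 1 without, with the E2F letters in capitals. Mcm5 lies at chr8:75109259-75109508 on the plus strand, Mcm6 at chr1:128359706-128359955 on the minus strand, Cdc6 at chr11:98907901-98908150 on the plus strand and Rrm2 at chr12:24708004-24708253 on the plus strand (GRCm38.p6). Mcm5 holds 2 matches on opposite strands that overlap, Mcm6 holds 3, of which the first 2 overlap, Cdc6 holds 1 and Rrm2 holds 0.
Mcm5: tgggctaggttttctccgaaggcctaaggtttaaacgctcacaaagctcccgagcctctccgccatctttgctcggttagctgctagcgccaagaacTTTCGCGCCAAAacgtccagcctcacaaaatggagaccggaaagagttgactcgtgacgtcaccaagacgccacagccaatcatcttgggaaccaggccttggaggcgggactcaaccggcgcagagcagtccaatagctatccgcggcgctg
Mcm6: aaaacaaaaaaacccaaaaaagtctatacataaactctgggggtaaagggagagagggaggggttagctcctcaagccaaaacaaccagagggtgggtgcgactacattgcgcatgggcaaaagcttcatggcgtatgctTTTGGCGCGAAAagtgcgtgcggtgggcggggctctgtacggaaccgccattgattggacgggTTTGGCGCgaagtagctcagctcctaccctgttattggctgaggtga
Cdc6: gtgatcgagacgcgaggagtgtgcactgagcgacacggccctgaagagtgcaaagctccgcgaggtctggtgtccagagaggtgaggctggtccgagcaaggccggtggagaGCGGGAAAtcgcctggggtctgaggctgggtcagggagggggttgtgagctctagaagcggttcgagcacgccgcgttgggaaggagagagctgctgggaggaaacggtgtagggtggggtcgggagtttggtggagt
Rrm2: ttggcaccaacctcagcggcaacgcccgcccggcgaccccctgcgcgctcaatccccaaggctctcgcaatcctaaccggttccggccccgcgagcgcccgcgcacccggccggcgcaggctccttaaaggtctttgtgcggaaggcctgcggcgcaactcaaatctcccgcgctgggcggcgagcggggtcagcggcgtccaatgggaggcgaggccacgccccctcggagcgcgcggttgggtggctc

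The values are normalized counts, which the authors derived from reads counted per gene. They summed to between 14952367 and 17314953 per library, and the number of reads behind them is unknown. All 10 fibroblast markers had counts in every library, with Col1a1 between 265664 and 568528 normalized counts. The lowest value was 157.5 for Lum in senescent replicate 2. The log2 fold change was negative for 7, most for Lum (−2.38) and Dcn (−2.37), and positive for 3, most for Thy1 (1.36). Of the 10, 0 had a limma adjusted p under 0.05 with or without the replicate block. The summed level of the 10 fibroblast markers was 1962055 to 2082633 in non-senescent and 1278753 to 1594317 in senescent MSFs. The 8 keratinocyte markers summed to 155, 372 and 222 normalized counts in non-senescent replicates 1, 2 and 3 and to 162, 500 and 224 in senescent ones. These sums were highest in both replicate 2 libraries, as the members were, and their largest part was Itga6, an integrin (74.0 to 378). Krt1 was at 0 in all libraries and Krt14 reached 0.91. Of the 3 tested, 1 had a positive and 2 a negative log2 fold change. With or without the replicate block, 0 had a limma adjusted p under 0.05. All senescent values lay below for 1 of them, Trp63 (25.1, 25.8 and 24.85 against 7.15, 2.5 and 6.87), as for 11.4% of all genes. Not tested were Krt5 (0.64, 0 and 0 against 2.96, 7.53 and 13.4) and Dsp (2.89, 12.4 and 5.22 against 4.22, 69.5 and 29.8). Both were higher in every pair. The 8 macrophage markers in the table summed to 212 to 553 in non-senescent and 387 to 555 in senescent MSFs. Of the 5 tested, 3 had a positive and 2 a negative log2 fold change, and 0 had a limma adjusted p under 0.05 with or without the replicate block. All senescent values lay above for 2 of them (9.19% of all genes). These were Lyz2 (46.8, 35.3 and 62.9 against 103, 143 and 159.5) and Csf1r (73.4 to 75.7 against 90.6 to 226). Cd68 had a negative log2 fold change, with its highest value, 352, in non-senescent replicate 2. Ptprc reached 5.01 and Emr1 was at 0. The 7 endothelial markers summed to 92 to 241 in non-senescent and 25 to 45 in senescent MSFs, mostly through Kdr, the VEGF receptor (205, 68.7 and 116 against 4.84, 7.53 and 14). Kdr was called lower by limma with the replicate block (adjusted p = 0.0488) and not without it (adjusted p = 0.0608). Vwf had the opposite direction (0.55 to 6.65 against 8.36 to 10.11), Pecam1 reached 11.3 and Cdh5 4.8. The part of these shifts in the results below was not tested. Cdkn1b, the mouse gene for p27Kip1, had 1427, 3074 and 1853 normalized counts in non-senescent replicates 1, 2 and 3 and 1699, 1520 and 1630 in senescent ones. The groups overlapped, and the log2 fold change was −0.32 (SE 0.28, limma adjusted p = 0.677). Whether reads of the ROSA26 allele were counted on Cdkn1b is not given in the sources used here, so that this gene may not check the labels.

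No replication or G1/S gene passed the test between senescent and non-senescent MSFs. The test was limma on log2(normalized counts + 1) over the 11877 genes that reached 1 c.p.m. (16.2 normalized counts) in 3 or more libraries. Of the members 48 reached this level, and E2f2 did not. At a Benjamini-Hochberg adjusted p under 0.05, 0 of the 48 were called, compared with 29 of all genes tested (0.244%). At an unadjusted p under 0.05, 0 members were higher (6.67% of all genes) and 2, Mcm7 and Rpa3, were lower in senescent MSFs (6.7% of all genes). That is 4.17% of the members and 13.4% of all genes. With the replicate number as a block, 0 members were called (1.62% of all genes). At an unadjusted p under 0.05 in that fit, 1 member, Ccne1, was higher (8.64% of all genes) and 6, Mcm7, Pola1, Prim1, Pold1, Pold2 and Rpa3, were lower (8.32% of all genes). That is 14.6% of the members against 17% of all genes. In the fit without the block, 7 members (14.6%, against 7.55% of all genes) were lower at this threshold without senescent replicate 2 and 0 (3.87% of all genes) without non-senescent replicate 3. Bulk RNA cannot tell fewer cycling cells from less RNA per cell.

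The directions leaned downwards. In senescent MSFs relative to non-senescent ones, the log2 fold change was negative for 35 of the 48 genes and positive for 13, with 53.8% of all genes tested negative. The median over the members was −0.18 and the median over all genes −0.03. When each library was scaled to the same total, the medians were −0.07 and 0.08. With that scaling 30 of the 48 members were negative, against 4955 of the 11861 genes tested. The median rested on single libraries. It was 0.08 without senescent replicate 1 and −0.53 without senescent replicate 2. The senescent values lay all below the non-senescent ones for 5 genes (Mcm7, Pold2, Rfc1, Rfc4 and Rpa3; 11.4% of all genes) and all above for 1 (Tyms; 9.19% of all genes), together 12.5% of the members against 20.6% of all genes. These counts moved with single libraries. The senescent values were all below for 21 members without senescent replicate 2 (43.8%, against 20.3% of all genes) and for 10 without non-senescent replicate 1 (20.8%, against 17.3%). They were all above for 7 without non-senescent replicate 2 (14.6%, against 15.5%). An exact permutation test of 3 against 3 libraries cannot go below p = 0.1 (two-sided).

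**Figure D1:**
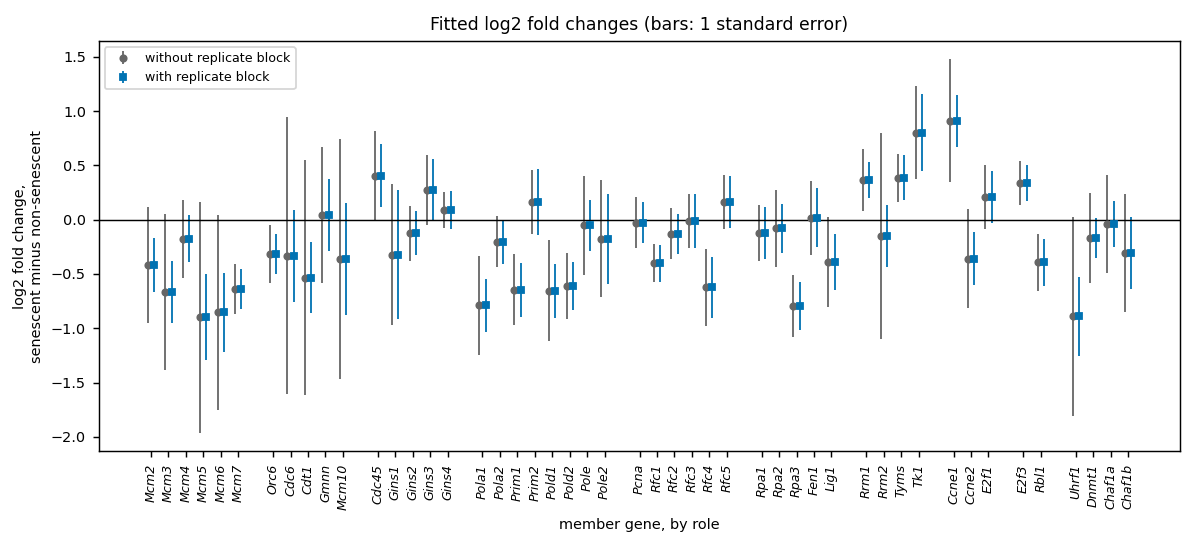
Fitted log2 fold change (senescent minus non-senescent, log2(normalized counts + 1)) of the 48 members tested, ordered by role along the x axis; points are limma estimates without (grey circles) and with (blue squares) the replicate block and bars are 1 standard error, 3 libraries per group. The estimates are the same in both fits, and the bars of genes such as Mcm5, Mcm6 and Cdt1 are much shorter with the block.

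The replicate number separated the members more than the treatment did. Replicate 2 held the highest of the 3 values in both groups for 36 of the 48 genes (75%), against 19.5% of all genes tested. Replicate 1 did so for 0 genes (9.61% of all genes) and replicate 3 for 3 genes (14.1% of all genes). The median member stood 1.5-fold above the mean of replicates 1 and 3 in non-senescent replicate 2 and 1.8-fold above it in senescent replicate 2, on the log2(normalized counts + 1) scale. For all genes these medians were 0.987 and 1.01. Summed over the 49 genes, the normalized counts were 9574, 15648 and 11594 in non-senescent replicates 1, 2 and 3 and 8566, 16162 and 9700 in senescent ones. Both replicate 2 libraries thus lay above the other 4. Of the sum of squares of a member, a median of 9.66% lay between the groups and 70.9% between replicate numbers, compared with 20.9% and 37.3% for all genes. There are more replicate numbers than groups, so unrelated values would also give replicate numbers the larger share. The larger share over all genes is therefore not by itself a difference between replicates. The 12 members for which replicate 2 was not the highest in both groups were Mcm7, Gins1, Gins2, Gins3, Prim1, Prim2, Rfc1, Rfc3, Rfc5, Rpa1, Rpa3 and Fen1. This pattern was noticed in the values and described afterwards, and its source was not tested.

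**Figure D2:**
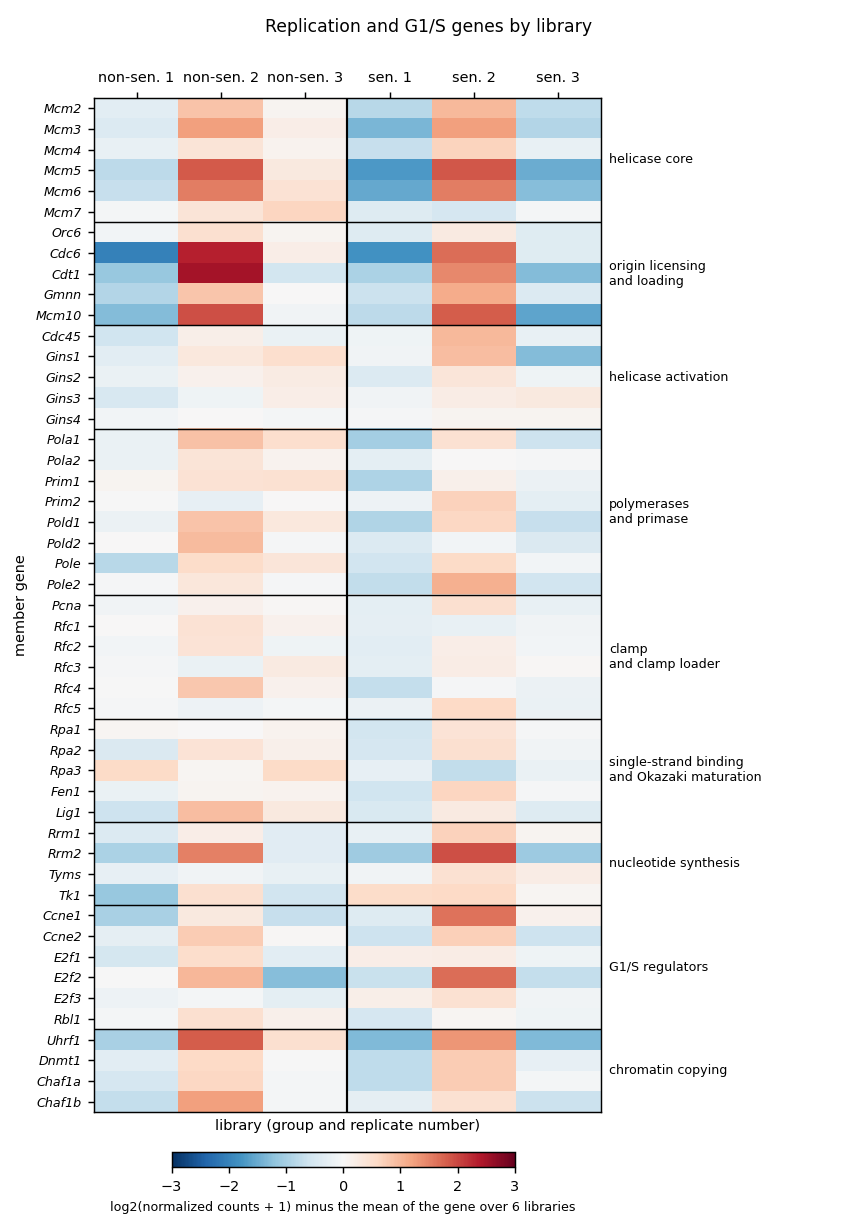
Level of the 49 members in the 6 libraries (columns, 3 non-senescent and 3 senescent), as log2(normalized counts + 1) minus the mean of the gene over the libraries; rows are grouped by role. Both replicate 2 columns are red for most genes, with the darkest shades in Cdc6, Cdt1, Mcm5 and Mcm10, while Mcm7 and Rpa3 differ from this pattern.

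**Figure D3:**
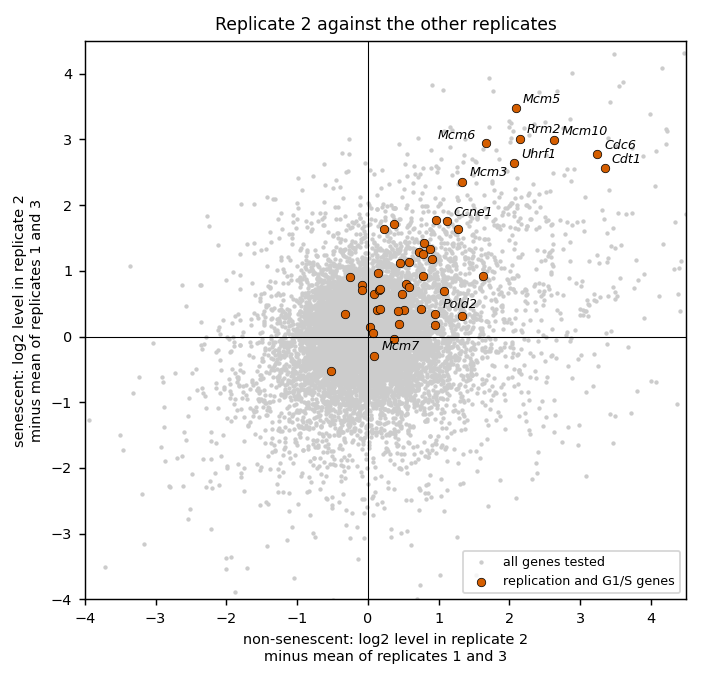
Log2 level in replicate 2 minus the mean of replicates 1 and 3, in non-senescent (x axis) and senescent (y axis) MSFs; grey points are the 11877 genes tested, 24 of which lie beyond the axes, and orange points are the 48 members tested. Most members lie in the upper right, with Cdt1, Cdc6 and Mcm10 farthest to the right and Mcm5 highest.

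Comparing libraries with the same number showed that the pairs did not move alike. The median difference of the 48 genes, senescent minus non-senescent, was −0.22 in pair 1, 0.06 in pair 2 and −0.36 in pair 3, where all genes had medians of −0.05, 0.00 and −0.05. The senescent library had the lower value for 31 genes in pair 1, 21 in pair 2 and 38 in pair 3. Pairs 1 and 3 were both lower for 29 genes (60.4%, against 40.6% of all genes), and 15 of these (31.2%, against 17% of all genes) were higher in pair 2. All 3 pairs were lower for 14 genes, Mcm6, Mcm7, Orc6, Pola1, Pola2, Prim1, Pold1, Pold2, Rfc1, Rfc4, Rpa3, Ccne2, Rbl1 and Uhrf1 (29.2% of the members, 23.6% of all genes). All 3 pairs were higher for 7 genes, Gins3, Gins4, Rrm1, Tyms, Tk1, Ccne1 and E2f3 (14.6%, against 18.3% of all genes). An exact test on 3 pairs cannot go below p = 0.25 (two-sided).

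Without both replicate 2 libraries, 22 of the 48 genes had their senescent values below the non-senescent ones (45.8%, against 31.4% of all genes) and 7 above (14.6%, against 22.9%). The median was then −0.27, and −0.05 over all genes. At an unadjusted p under 0.05, 3 members were higher and 7 lower in limma without the block (9.48% and 10.8% of all genes), and 0 were called (0.0842% of all genes). With the block and without replicate 2, which leaves 2 pairs, 3 were higher and 11 lower (12.5% and 13.8% of all genes), and 1 gene was called lower, as were 3.34% of all genes. This gene was Mcm3 (log2 fold change −1.01, SE 0.19, limma adjusted p = 0.0427). The fit was added after the data had been seen. Without the block or with all pairs Mcm3 was not called.

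**Figure D4:**
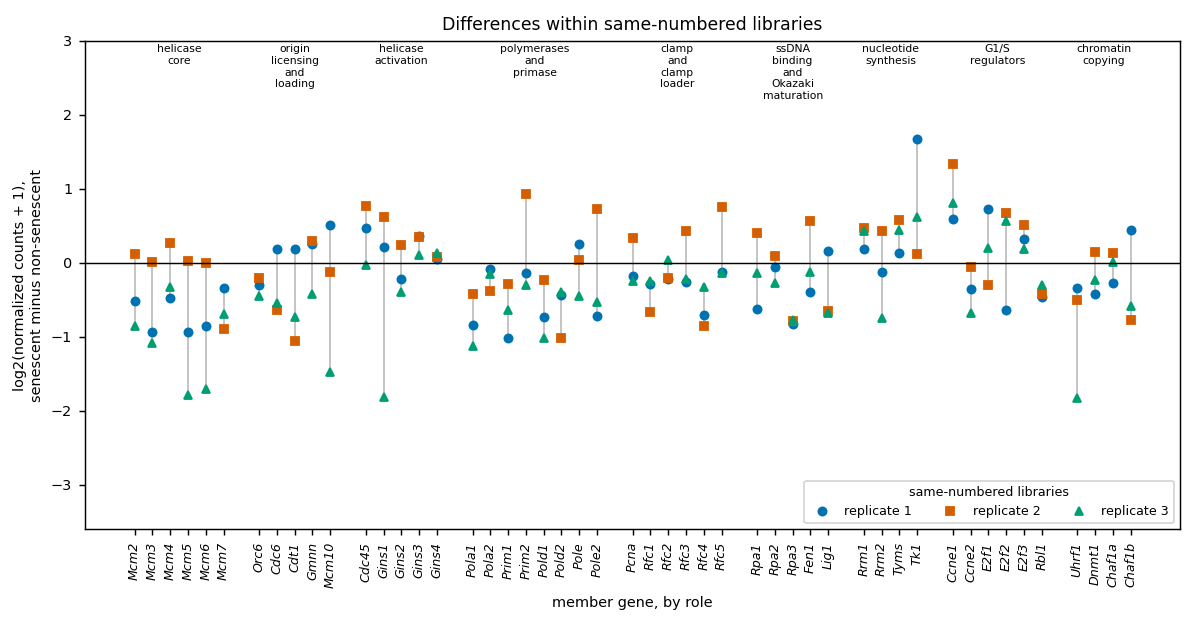
Difference in log2(normalized counts + 1), senescent minus non-senescent, within each pair of same-numbered libraries, for the 49 members ordered by role; circles are replicate 1, squares replicate 2 and triangles replicate 3, and grey lines join the 3 pairs of a gene. Helicase core genes other than Mcm7 lie near or above 0 in replicate 2 and below 0 in the other pairs, Rpa3 has its 3 points together near −0.8, and all points of Tk1 and Ccne1 are above 0.

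The helicase core, Mcm2 to Mcm7, forms the ring that unwinds DNA at the fork. All 6 log2 fold changes were negative, with a median of −0.65 as deposited and −0.54 with libraries scaled to the same total, and 0 of the 6 were called. Mcm5 (ENSMUSG00000005410, chr8:77633427-77652338 of mm9, plus strand, 17 exon blocks) had 44.2, 280 and 95.5 normalized counts in non-senescent replicates 1, 2 and 3 and 22.7, 285 and 26.9 in senescent ones. Replicate 2 was highest in both groups and did not separate them, while the senescent value was lower in pairs 1 and 3. Its log2 fold change of −0.90 came with an SE of 1.06 (limma adjusted p = 0.759), which the block reduced to 0.40 (limma adjusted p = 0.338). Mcm6 (ENSMUSG00000026355, chr1:130228168-130256233 of mm9, minus strand) had 81.8, 389 and 179.7 in non-senescent and 45.02, 387 and 54.3 in senescent MSFs. The promoters of these 2 genes, shown above, hold 2 and 3 matches to the E2F letters.

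Mcm3 had 137, 430.2 and 212 normalized counts in non-senescent replicates 1, 2 and 3 and 71.1, 436 and 99.7 in senescent ones. Mcm2 had 206, 465.5 and 274 in non-senescent and 143, 504 and 152 in senescent replicates 1, 2 and 3. Mcm4 had 340, 522 and 430.4 against 245, 631 and 343. The same order, with replicate 2 highest and nearly alike or higher in the senescent library, held for these 3 genes. Their log2 fold changes were −0.67 (SE 0.72), −0.42 (SE 0.54) and −0.17 (SE 0.36). Mcm7 (ENSMUSG00000029730, chr5:138605811-138613650 of mm9, minus strand) differed from the other 5, with 587, 793 and 946 in non-senescent and 466, 426 and 586 in senescent replicates. Every senescent value of Mcm7 was below every non-senescent one. Its log2 fold change was −0.64 (SE 0.23, limma unadjusted p = 0.0281, adjusted p = 0.303, and 0.193 with the block). Of the Mcm7 transcript, 80.2% had a match of at least 100 bases and 95% identity at 1 other place in the genome, and 12.6% of its exon bases lie in other genes, among them the microRNA genes Mir25 and Mir93, so that the count of Mcm7 is uncertain.

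Among the loading factors, Orc6 is a subunit of the origin recognition complex, and Mcm10 helps to activate the loaded helicase. Replicate 2 was highest in both groups for all 5 genes of this role (Orc6, Cdc6, Cdt1, Gmnn and Mcm10). Cdt1 had 31.7, 405 and 47.7 normalized counts in non-senescent replicates 1, 2 and 3 and 36.1, 194 and 28.4 in senescent ones. Both replicate 2 libraries were above the other 4, the non-senescent one most. The log2 fold change of Cdt1 was −0.53 (SE 1.09, limma adjusted p = 0.875). With non-senescent replicate 2 left out it was 0.58, so that its direction rested on this library. Mcm10 had 6.72, 71.5 and 16.7 in non-senescent and 10.04, 65.3 and 5.35 in senescent replicates. Its pair differences were 0.52, −0.13 and −1.48. Cdc6 had 2.82, 76.3 and 16.7 against 3.36, 48.6 and 11.1, and low values such as these rest on few reads. Of the variation of Cdc6, 97.6% lay between replicate numbers and 1.05% between the groups. The log2 fold changes of Orc6 and Gmnn were −0.32 and 0.04. Of the Cdc6 transcript, 56.2% matched 1 other place of the genome.

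Cdc45 and the GINS complex (Gins1 to Gins4) turn the loaded ring into an active helicase. Their median log2 fold change was 0.09, with 3 of 5 positive. Cdc45 had 38.0, 66.7 and 51.2 normalized counts in non-senescent and 53.3, 115 and 50.06 in senescent replicates 1, 2 and 3. The groups overlapped, and its log2 fold change was 0.41 (SE 0.41, limma adjusted p = 0.718). Gins1 had 13.05, 20.95 and 23.9 against 15.4, 32.7 and 6.1. The pair differences of Gins1, 0.22, 0.62 and −1.81, were the farthest apart of all members tested (a range of 2.43). Gins4 was nearly level across the libraries, with 249, 264 and 253 in non-senescent and 258, 280 and 279 in senescent replicates and a range of 0.09 between its pair differences. Gins2 and Gins3 had log2 fold changes of −0.12 and 0.28, and 67.3% of the exon bases of Gins2 overlap a gene on the other strand.

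The polymerases and primase had a median log2 fold change of −0.41 with 7 of 8 negative (−0.30 with 6 of 8 negative when libraries were scaled to the same total, where Pole was 0.06), and 5 lower in all 3 pairs. Pola1, the catalytic subunit of polymerase alpha, had 98.3, 207 and 160.3 normalized counts in non-senescent and 54.7, 155 and 73.1 in senescent replicates 1, 2 and 3. It was lower in the senescent library of every pair, by 0.83, 0.42 and 1.12 on the log2 scale, although the groups overlapped. Its log2 fold change of −0.79 came with an SE of 0.45 (limma adjusted p = 0.510), which the block reduced to 0.24 (limma adjusted p = 0.211). Prim1, the primase subunit that makes the RNA primer, had a log2 fold change of −0.65 (SE 0.33). For Pold1 and Pold2, subunits of the lagging-strand polymerase delta, it was −0.66 (SE 0.47) and −0.61 (SE 0.30). The senescent values of Pold2 (165 to 211) lay below the non-senescent ones (217 to 428). Pole and Pole2, of the leading-strand polymerase epsilon, had log2 fold changes of −0.05 and −0.18, and Pola2 and Prim2 had −0.20 and 0.16.

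Pcna, the sliding clamp, had the highest level per kilobase of exon of all members, with a mean of 317 normalized counts per kb in non-senescent and 319 in senescent MSFs. Its normalized counts were 693, 822 and 763.5 in non-senescent and 612.5, 1040 and 646 in senescent replicates 1, 2 and 3. The log2 fold change was −0.03 (SE 0.24, limma adjusted p = 0.976), or 0.09 with libraries scaled to the same total. Senescent replicate 2 was the highest library and the other 2 senescent values the lowest. Of the Pcna transcript, 82.8% matched 1 other place of the genome. Among the clamp loader genes Rfc1 to Rfc5, Rfc4 had 49.9, 89.7 and 55.8 against 30.2, 49.4 and 44.4, with no overlap. For Rfc4 the log2 fold change was −0.62 (SE 0.36, limma adjusted p = 0.511). Rfc1, the large subunit, did not overlap either (906 to 1212 against 741 to 826, log2 fold change −0.40, SE 0.17, limma adjusted p = 0.380). Rfc2, Rfc3 and Rfc5 had log2 fold changes of −0.13, −0.01 (0.1 with libraries scaled to the same total) and 0.17.

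Replication protein A coats single-stranded DNA, and its 3 subunits did not share a pattern. Rpa3 (ENSMUSG00000012483, chr6:8205936-8209173 of mm9, minus strand) had 131, 90.6 and 131 normalized counts in non-senescent and 73.6, 51.9 and 76.2 in senescent replicates 1, 2 and 3. The groups did not overlap, and replicate 2 was the lowest in both, opposite to most members. Its pair differences of −0.82, −0.79 and −0.78 spanned 0.05, the smallest range of all members. Rpa3 had a log2 fold change of −0.80 (SE 0.28, limma unadjusted p = 0.0259, adjusted p = 0.295, and 0.182 with the block). Rpa1 and Rpa2 had log2 fold changes of −0.12 (SE 0.26) and −0.08 (SE 0.35), the latter 0.03 with libraries scaled to the same total. Of the genes that finish Okazaki fragments, the flap nuclease Fen1 had 0.02 (SE 0.34) and the ligase Lig1 had −0.39 (SE 0.42), and 84.2% of the exon bases of Fen1 overlap 2 genes on the other strand.

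Nucleotide synthesis was the role with the highest median, 0.38, with 3 of 4 genes positive and higher in all pairs. Tk1, the thymidine kinase of the salvage route, had 48.2, 149.7 and 71.6 normalized counts in non-senescent and 155, 162 and 111 in senescent replicates 1, 2 and 3. The non-senescent replicate 2 value lay among the senescent ones, and the other non-senescent values lay below them. Its pair differences were 1.67, 0.12 and 0.62, and the log2 fold change of 0.80 had an SE of 0.43 (limma adjusted p = 0.478). Of the Tk1 transcript, 83% matched 1 other place of the genome. Tyms, thymidylate synthase, was the single member with all senescent values above the others (154, 229.6 and 194 against 139.8, 154 and 142), with a log2 fold change of 0.39 (SE 0.22, limma adjusted p = 0.510). In replicate 1 the senescent value of 153.9 stood next to the highest non-senescent value of 153.6. Rrm1, the large subunit of ribonucleotide reductase, had a log2 fold change of 0.36 (SE 0.29). Rrm2, its small subunit, had 80.2, 441 and 122 in non-senescent and 73.3, 594 and 72.3 in senescent replicates, with 95.9% of its variation between replicate numbers. Its log2 fold change was −0.15 (SE 0.95). As for Mcm5, replicate 2 was far above the rest in both groups, and the Rrm2 window shown above holds none of the E2F letters searched. Of its transcript, 37.8% matched 1 other place.

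Among the G1/S regulators, Ccne1 encodes cyclin E1, the partner of the kinase that p27Kip1 inhibits. Ccne1 (ENSMUSG00000002068, chr7:38883003-38892553 of mm9, minus strand) had 70.9, 169.8 and 85.8 normalized counts in non-senescent and 107, 432 and 151 in senescent replicates 1, 2 and 3. It was higher in the senescent library of every pair, by 0.59, 1.34 and 0.81, although the groups overlapped. For the log2 fold change of 0.91 the SE was 0.56 (limma adjusted p = 0.550), and the block reduced it to 0.24 (limma adjusted p = 0.164). That is the lowest adjusted p of all members in the fit with the block. Ccne2, for cyclin E2, had a log2 fold change of −0.36 (SE 0.46). The activator E2F genes E2f1 and E2f3 had 0.21 (SE 0.29) and 0.34 (SE 0.20). E2f2 was not tested, with 1.39, 3.80 and 0 in non-senescent and 0.53, 6.69 and 0.48 in senescent replicates, values that rest on few reads. Rbl1, the retinoblastoma relative p107, had −0.39 (SE 0.27).

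The last 4 genes copy chromatin behind the fork, and all 4 log2 fold changes were negative, with that of Chaf1a positive (0.07) when libraries were scaled to the same total. Uhrf1, which brings the maintenance methyltransferase Dnmt1 to new DNA, had 45.03, 318 and 126 normalized counts in non-senescent and 35.3, 224 and 34.9 in senescent replicates 1, 2 and 3. The pair differences of −0.34, −0.50 and −1.82 had one sign and unequal size. Its log2 fold change of −0.89 came with an SE of 0.92 (limma adjusted p = 0.722), which the block reduced to 0.36 (limma adjusted p = 0.308). Of the Uhrf1 transcript, 71.9% matched 1 other place of the genome. Dnmt1 had a log2 fold change of −0.17 (SE 0.41). The assembly factor genes Chaf1a and Chaf1b had −0.04 (SE 0.45) and −0.30 (SE 0.54).

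Levels per kilobase of exon ranged widely. After Pcna, the highest means in non-senescent MSFs were those of Gins4 (187 normalized counts per kb) and Mcm7 (175), and in senescent MSFs those of Rrm1 (202) and Gins4 (199.6), with Mcm7 at 111. The lowest tested members were Mcm10, with 4.1 and 3.5 per kb, and Cdc6, with 6.11 and 4.02. The excess of replicate 2 over the mean of the other replicates was 9.41-fold in non-senescent and 6.82-fold in senescent MSFs for Cdc6, 6.21-fold and 7.92-fold for Mcm10, and 4.26-fold and 11.1-fold for Mcm5, on the log2(normalized counts + 1) scale. For Pcna and Gins4 it was 1.13-fold and 1.65-fold, and 1.05-fold and 1.04-fold.

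A wider list of 58 other replication and G1/S genes held 55 that were tested, and 0 of them were called by limma with or without the block. At an unadjusted p under 0.05, 3 were higher, Cdk6, Ctps and E2f6 (6.67% of all genes), and 2 lower, Dut and Cdk4 (6.7% of all genes), in senescent MSFs. With the block 3 were higher and 7 lower (8.64% and 8.32% of all genes). The log2 fold change was negative for 41 of the 55 (74.5%, against 53.8% of all genes), with a median of −0.26 (−0.03 over all genes). Replicate 2 was highest in both groups for 24 of them (43.6%, against 19.5% of all genes). Dut, the dUTPase that keeps uracil out of DNA, had 817.5, 860.5 and 772 normalized counts in non-senescent and 209, 448 and 363 in senescent replicates 1, 2 and 3. All senescent values were below the others, and its log2 fold change was −1.33 (SE 0.29, limma adjusted p = 0.145, and 0.0873 with the block). E2f7, a repressor of the E2F family, had 9.06, 103 and 37.1 against 5.58, 79.6 and 4.64, with a log2 fold change of −1.25 (SE 1.23, limma adjusted p = 0.708). Ctps, CTP synthase, had 1106, 595 and 693 against 1471, 2467 and 1399, with a log2 fold change of 1.16 (SE 0.31, limma adjusted p = 0.206).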

How the data were processed

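Poly(A) RNA of the 6 MSF libraries was sequenced. Per the paper's methods and the processing notes, reads were mapped to mm9 with TopHat, counted on RefSeq genes with HTSeq and compared with edgeR after TMM normalization by the authors. The signal deposited by the authors is 1 table of normalized counts that are not whole numbers, and whether TMM scaled this table is not given in the sources used here. A count test was therefore not run, and limma was used. Depth in reads is unknown, and the precision is that of 3 libraries against 3.

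The members, their roles, the other gene lists and the rules were chosen with earlier results of these data known. Values for every library are given for Mcm2 to Mcm7, Pcna, the member with the largest absolute log2 fold change in each role, members called, and the 5 with the largest spread between pairs (Gins1, Mcm10, Mcm5, Mcm6 and Tk1), and for Mki67, Top2a, Cdkn1b and the 3 largest changes in the wider list. Others were added after their values were seen.

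Differences in log2(value + 1) were modelled with limma 3.58.1 (R 4.3.3) and an intensity trend. Genes entered the fit at 1 c.p.m. or more in at least 3 libraries, with Benjamini-Hochberg adjustment over 11877 genes. In simulated libraries with 200 changed genes and a difference shared by same-numbered libraries, 51.5% of the changes were recovered when the replicate block was left out, with 0% of calls false, and 100% when it was included, with 4.4% false (11782 genes). With independent libraries both fits recovered 100%, with 5.7% false without the block and 2.9% with it (11800 genes). Recovery at the log2 fold changes and SEs of the members was not tested. Their SEs reached 1.275 without the block and 0.596 with it. Replicate numbers are in the labels. Deviations from the group means correlated, across 11877 genes that are not independent, with r of 0.241, 0.287 and 0.422 in same-numbered libraries. In others r ran from −0.31 to 0.037. Deviations within a group cancel for each gene, so positive same-numbered values push the others down, and these are no separate support. From the same-numbered values the numbers were taken to pair the libraries.

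Gene positions are those of the deposited table. Exon overlaps and exon lengths are from Ensembl gene models of mm9, matched by the Ensembl identifiers of the table. They may differ from the RefSeq models used for counting, so overlaps and levels per kb are approximate. Transcripts were matched to the mm9 genome with BLAST 2.17.0, and promoter windows are from RefSeq (GRCm38.p6). Python 3.11.15 with pandas 2.3.3 and matplotlib 3.10.9 produced the summaries and plots. Alternatives were another scaling (equal totals or median ratios), pseudocounts of 0.1 and 10, other filters, the replicate block, and leaving out each library or pair. The strand setting of the counting is not given in the sources used here.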

Additional observations from a re-analysis of the deposited data

How the results depend on the processing

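Scaling each library to the same total moved the median log2 fold change of all genes from −0.03 to 0.08. With that scaling 1 member stood higher and 0 stood lower at an unadjusted p under 0.05 (9.48% and 4% of all genes), 3 members lay above and 2 below without overlap (13.9% and 6.36% of all genes), and Chaf1a (0.072), Pole (0.059), Pcna (0.085), Rpa2 (0.030) and Rfc3 (0.1) became positive. Median-ratio scaling gave 2 members above without overlap (4.17%, against 9.65% of all genes) and Rfc3 at 0.007. With the replicate block an unadjusted p under 0.05 was reached by 1 member that was higher and 6 that were lower (8.64% and 8.32% of all genes). The block changed no call of a member at an adjusted p under 0.05. Any 1 library or same-numbered pair was then left out, and each pair was left out of the fit with the block (chosen after seeing the data). An unadjusted p under 0.05 was reached by 0 to 3 members that were higher and by 0 to 11 that were lower. In the same fits, 3.5% to 12.5% of all genes were higher and 2.94% to 13.8% lower at this threshold. Members above without overlap numbered 1 to 7 and below 5 to 22, where 11.3% to 22.9% and 13.4% to 31.4% of all genes did so. Members higher in all remaining pairs numbered 8 to 11 and lower 15 to 29, and members called lower 0 to 1. The 29 were counted with pairs 1 and 3, where 40.6% of all genes were lower. Shares of all genes for the other counts by pair are not given here. The 1 call was with the block and without replicate 2, where 3.34% of all genes were called lower. The median log2 fold change of the members ran from −0.529 to 0.083. Of the 48 members, 26 changed sign in none of these omissions and 22 in at least 1. The log2 fold changes of these 22 ran as follows, Cdc6 from −1.423 to 0.746, Cdt1 from −1.389 to 0.581, Chaf1a from −0.431 to 0.336, Chaf1b from −0.737 to 0.241, Dnmt1 from −0.590 to 0.161, E2f1 from −0.050 to 0.523, Fen1 from −0.302 to 0.321, Gins1 from −0.871 to 0.419, Gins2 from −0.337 to 0.053, Gmnn from −0.505 to 0.463, Mcm10 from −1.358 to 0.516, Mcm4 from −0.548 to 0.132, Pcna from −0.268 to 0.113, Pole from −0.484 to 0.226, Pole2 from −0.748 to 0.152, Prim2 from −0.224 to 0.395, Rfc2 from −0.261 to 0.041, Rfc3 from −0.235 to 0.130, Rfc5 from −0.127 to 0.314, Rpa1 from −0.383 to 0.130, Rpa2 from −0.347 to 0.148 and Rrm2 from −1.152 to 0.566. The causes of these changes were not tested.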

Other observations

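In genes of mitosis and G2/M the direction turned between the pairs of same-numbered libraries. All 24 on a list of such genes were tested, and 0 were called by limma with or without the replicate block. In either fit 0 had an unadjusted p under 0.05 (13.4% of all genes without the block and 17% with it). All 24 were higher in the senescent library of pair 1 (median 0.82 on the log2 scale), 17 were higher in pair 2 (median 0.27) and 22 were lower in pair 3 (median −0.78). Over all genes the pair medians were −0.05, 0.00 and −0.05. Replicate 2 was highest in both groups for 22 of the 24 (91.7%, against 19.5% of all genes). Mki67, a marker of cycling cells, had 106, 713 and 403 normalized counts in non-senescent replicates 1, 2 and 3 and 198, 585 and 77.4 in senescent ones. Top2a, which untangles DNA before mitosis, had 88.8, 661 and 274 against 149, 474 and 79.5. In both genes replicate 2 was highest in each group, and the direction turned between pairs 1 and 3. The helicase core, in contrast, had 6 of 6 genes lower in the senescent library of pair 1 (median −0.69) and of pair 3 (median −0.96). Other roles of the members did not share this contrast. In pair 1, 4 of 5 loading genes (median 0.19), 4 of 5 helicase activation genes and 3 of 4 nucleotide synthesis genes were higher. The 5 loading genes were all lower in pair 3 (median −0.55). Of all 48 members, 17 were higher and 31 lower in pair 1.

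Of 6 CDK inhibitor genes tested, 0 were called. The log2 fold change was negative for 5 (53.8% of all genes), with a median of −0.53 (−0.03 over all genes). Cdkn2c (p18) had an unadjusted p of 0.0392 by limma with the block (log2 fold change −0.81), and 0.240 without it. Cdkn1a (p21) was the 1 gene with a positive value and had an unadjusted p under 0.05 in both fits. Its normalized counts were 3461, 3655 and 1718 in non-senescent and 7410, 4300 and 7452 in senescent replicates 1, 2 and 3. All senescent values lay above the others, with the lowest of them in replicate 2, and the log2 fold change was 1.15 (SE 0.36, limma unadjusted p = 0.0148, adjusted p = 0.254). Cdkn1a and Cdkn2c were named after their values were seen.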
